A study of Bos taurus with 10 samples.

Results

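Bovine (Bos taurus) oviductal organoids kept at 37 °C, the thermoneutral culture temperature, were described from 5 libraries across every gene listed at 1 TPM or more in all 5 of them. TPM is a unit of transcript abundance in which reads are divided by transcript length and scaled to the same total in every library, so that levels of different genes can be set side by side. This rule took 11163 of the 26804 genes of the table (41.6%) and 5 of the 10 samples of the series. The rule used no difference between groups, but the genes and gene lists described within it were chosen with earlier results of these data known, and nothing here was tested between groups. Only the level at 37 °C and the spread between the 5 libraries are reported.

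In the study, organoids were grown from oviducts resected from diestrus reproductive tracts of slaughtered cows, and RNA of whole organoids was sequenced after a last day at 37 °C or at 42 °C. The group described here was cultured for 14 days with 1 passage at 37 °C, moved to the synthetic matrix VitroGel, and kept at 37 °C throughout. The libraries are named A to E, as in the labels. Each one was a pool of 2 animals, so that a difference between libraries could come from the animals or from the culture and the 2 cannot be told apart. No source used here gives the strain or age of the animals. All 5 libraries shared a medium with epidermal growth factor, FGF-10, Noggin, the TGF-beta receptor inhibitor A83-01, the p38 inhibitor SB202190, the ROCK inhibitor Y27632, nicotinamide, N-acetylcysteine and insulin-transferrin-selenium.

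The oviduct carries gametes and the early embryo through a tube lined by a simple epithelium. Secretory cells of that lining release proteins and fluid into the lumen, and multiciliated cells move the fluid and its contents. Organoids are hollow epithelial bodies that keep the apical face inward, and they are grown from dissociated epithelium without the stroma, vessels and immune cells that surround it in the animal.

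The depth of the libraries cannot be read from TPM, since each column sums to 1000000 whatever was sequenced. The study reports read numbers, but they were not used here, and no counting interval is given. Between 11624 (A) and 11942 (D) genes reached 1 TPM in a single library. A further 1356 genes reached it in some libraries but not in all, and 14285 genes in none, of which 10652 were listed at 0 in all 5. The rule cut through a dense region of low levels. The lowest library lay between 1 and 1.1 TPM for 94 of the genes taken, and between 0.9 and 1 TPM for 99 genes that reached 1 TPM in the other 4 libraries. The genes taken held 99.7% ± 0.0449 of all TPM (SD, n = 5). Of them, 435 (3.90%) had only an identifier and no symbol, and together with the other genes without a symbol these held 2.16% ± 0.0890 of TPM (SD, n = 5).

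Abundance was steeply graded. Averaged over the 5 libraries, 175 genes (1.57% of those expressed) stood at 1000 TPM or more, 1593 (14.3%) at 100 TPM or more and 7804 (69.9%) at 10 TPM or more, and the middle gene stood at 20.5 TPM. The 10 most abundant genes of a library held 8.28% of its TPM in A, 8.44% in B, 8.48% in C, 8.34% in D and 8.70% in E. The 100 most abundant held 33.1% in A, 33.7% in B, 31.8% in C, 31.4% in D and 32.5% in E. The number of genes needed to reach 50% of TPM was 268 in A, 258 in B, 292 in C, 311 in D and 287 in E. Library D was thus the least concentrated and B the most by the last 2 of these measures, over a narrow range.

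**Figure D1:**
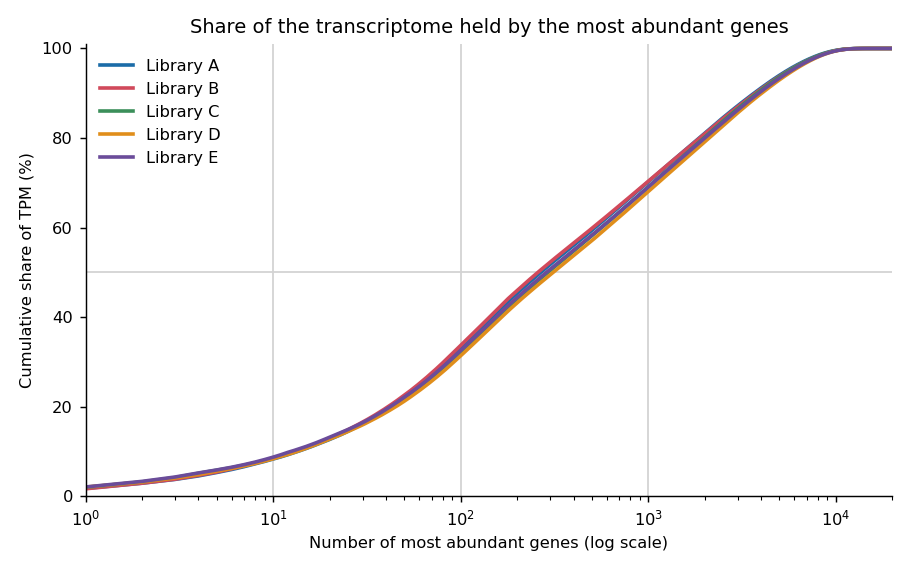
Cumulative share of TPM in percent (vertical axis) against the number of most abundant genes counted (horizontal axis, log scale), with 1 line for each of the 5 libraries at 37 °C. The lines nearly coincide and cross 50% at between 258 and 311 genes.

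The head of the ranking was filled by respiration, translation, iron storage and the cytoskeleton. Of the 100 most abundant genes, 48 encoded proteins of the cytosolic ribosome and 9 were genes of the mitochondrial genome. Another 7 belonged to a list of oviduct secretory genes, 6 to actin and the apical cortex, 4 to glycolysis and 4 to the keratins, some of these in more than 1 list. Only 3 had no symbol, and 11 belonged to none of the 56 gene lists.

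COX1 (ENSBTAG00000043561), which encodes a core subunit of cytochrome c oxidase in the mitochondrial genome, was the most abundant transcript, with 17096 TPM in A, 16325 in B, 19563 in C, 20149.7 in D and 20384 in E. The next, COX3 and COX2, encode the other mitochondrial subunits of the same enzyme and averaged 12044 and 9073 TPM. All 13 protein-coding genes of the mitochondrial genome were expressed, from 18704 TPM for COX1 down to 179 TPM for ATP8, a subunit of ATP synthase. Together they made up 6.02% of TPM in A, 6.38% in B, 6.59% in C, 6.52% in D and 7.02% in E. The share was lowest in A and highest in E, with the other 3 libraries between them. Levels within this genome were uneven, and ND4L (220.2 TPM in A, 356 in B, 287 in C, 317 in D and 447 in E) and ATP8 were the members that varied at least 2-fold, both lowest in A and highest in E. The nuclear partners stood far lower. Complex I subunits, all 38 of them expressed, summed to 0.800% ± 0.0807 (SD, n = 5) of TPM, complexes II to IV to 1.11% ± 0.102 (SD, n = 5) and ATP synthase to 1.05% ± 0.0747 (SD, n = 5).

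Cytosolic ribosomal protein genes were the largest single programme. Of 81 listed, 78 were expressed, and they made up 17.6% of TPM in A, 17.6% in B, 15.9% in C, 14.5% in D and 15.9% in E. A and B lay above the other 3 libraries, and D lay below. This was shared by most members, since 38 of the 78 were highest in A, 32 were highest in B and 63 were lowest in D, although none varied 2-fold. Over all expressed genes, 13.5% were highest in A, 10.9% highest in B and 17.2% lowest in D. RPLP1 (ENSBTAG00000018320), an acidic protein of the ribosomal stalk, led them with 7799 TPM in A, 7381 in B, 6792 in C, 6207 in D and 6672 in E. The list of translation factors took 2.16% ± 0.0358 (SD, n = 5), with the elongation factor EEF1A1 at 4561 TPM. It also counts TPT1 (5154 TPM), the translationally controlled tumour protein, which is not itself a translation factor.

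Iron storage was prominent. FTH1, the heavy chain of ferritin, had rank 4 of all genes with 7619 TPM in A, 8913 in B, 9671 in C, 7900.1 in D and 9066 in E. FTL, the light chain, had 5533 TPM in A, 6608 in B, 5134 in C, 4599.5 in D and 4212 in E. The 2 chains did not follow the same order of libraries, FTH1 being highest in C and FTL in B. HMOX1, which releases iron from haem, averaged 197 TPM and varied 2.10-fold, highest in A and lowest in E. The import receptor TFRC stood at 37.3 TPM and the exporter SLC40A1 at 17.4 TPM.

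Antioxidant genes made up 1.35% ± 0.117 (SD, n = 5) of TPM, with 32 of 33 measured members expressed. The most abundant were thioredoxin TXN (2509 TPM) and the peroxiredoxin PRDX1, which had 2434 TPM in A, 2415 in B, 2166 in C, 1466 in D and 1496 in E. D and E were apart from the other 3 libraries for PRDX1. Cytosolic chaperones summed to 1.10% ± 0.0561 (SD, n = 5), without heat treatment, and were led by HSPA8, the constitutive HSP70 (2029 TPM), and HSP90AB1, the constitutive HSP90 (1864 TPM). The inducible HSPA1A was listed at 442 TPM in A, 422 in B, 405 in C, 402 in D and 476 in E, and the range was narrow.

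**Figure D2:**
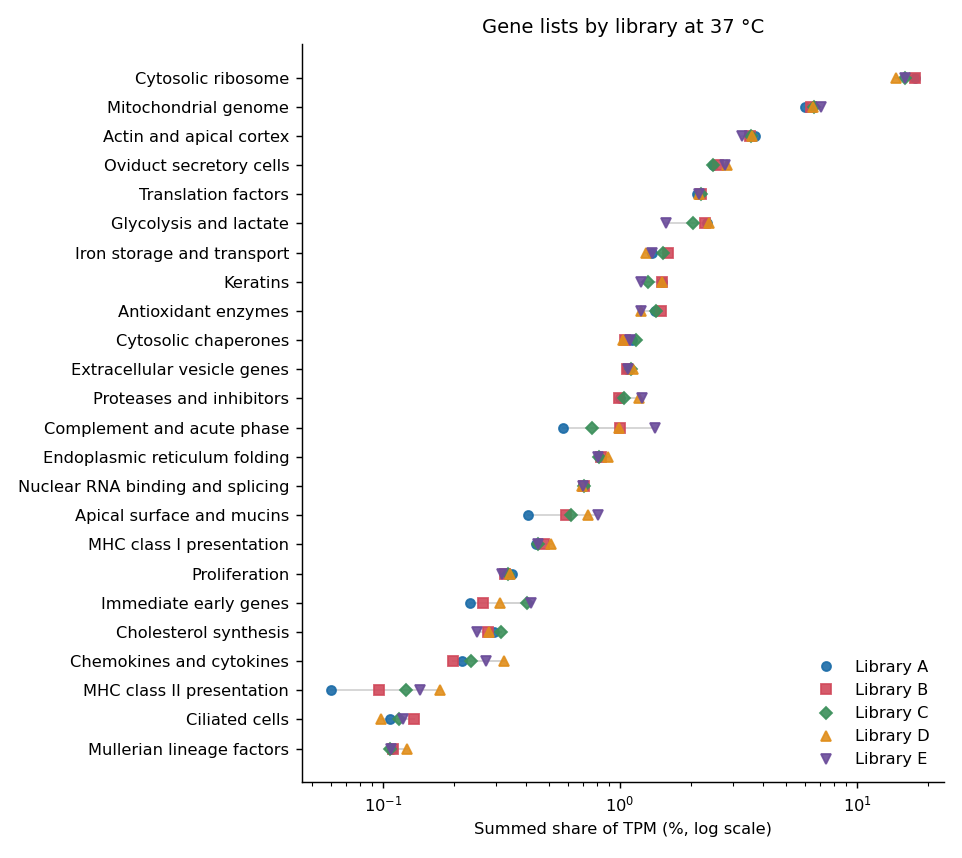
Summed share of TPM in percent (horizontal axis, log scale) for 24 gene lists (vertical axis), with 1 symbol for each library at 37 °C. Cytosolic ribosome genes held 14.5% to 17.6% and splicing genes 0.694% to 0.707%, while MHC class II genes ranged from 0.0603% in A to 0.173% in D.

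All 8 epithelial markers were expressed, their summed level lying between 13514 TPM (E) and 16440 TPM (D). The keratins, the intermediate filaments of epithelia, were dominated by the 4 of simple epithelium. KRT19 (ENSBTAG00000004905) had 6433 TPM in A, 5789.5 in B, 4118 in C, 5783 in D and 4114 in E, and KRT8, KRT7 and KRT18 averaged 3764, 2783 and 2064 TPM. Only 9 of 52 measured keratin genes were expressed. KRT5, a keratin of basal and progenitor cells, stood at 168 TPM, while KRT14, its usual partner in stratified epithelium, stayed at or below 0.204 TPM and the basal factor TP63 was listed at 0. The adhesion molecules EPCAM and CDH1 averaged 657 and 201 TPM. Claudins, the seals of tight junctions, were led by CLDN3 (424 TPM) and CLDN7 (334 TPM). Of 34 tight junction genes 19 were expressed, against 41.6% of all genes of the table, and none of the 19 varied 2-fold. Basal adhesion genes, among them ITGB4 of the hemidesmosome (246 TPM) and LAMB3 of the basal laminin (140.2 TPM), were expressed in 18 of 21 cases.

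Transcription factors of the Müllerian duct, from which the oviduct arises, were present at moderate levels. PAX8 had 66.0 TPM in A, 71.1 in B, 84.3 in C, 75.2 in D and 79.2 in E. SOX17 had 139.8 TPM in A, 125 in B, 128 in C, 110.3 in D and 111 in E, and EMX2 averaged 112 TPM. PAX2 (40.9 TPM), WT1 (106 TPM), GATA6 (64.9 TPM) and HOXA5 (73.4 TPM) were expressed as well. This puts 20 of 31 measured lineage factors at 1 TPM or more in all libraries, against 41.6% of all genes of the table. HOXA9, HOXA10 and HOXA11, which pattern the tract in the mouse, were listed at 0 in all 5. PAX8 and SOX17 were among the steadier of these genes, with SDs of 0.13 and 0.14 on the log2(TPM + 1) scale.

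OVGP1 (ENSBTAG00000005973), the oviduct-specific glycoprotein that defines secretory cells of the bovine oviduct, did not reach 1 TPM. It was listed at 0.126 TPM in A, 0.118 in B, 0.584 in C, 0.137 in D and 0 in E. The study reports OVGP1 protein in its organoids by immunostaining, and states that OVGP1 was stably expressed in its RNA sequencing. Protein is another measure than RNA, and the staining was not examined here. The other secretory markers were expressed, 5 of 6, and a wider list of secretory genes had 21 of 29 measured members expressed and made up 2.47% of TPM in A, 2.59% in B, 2.47% in C, 2.84% in D and 2.77% in E. CST6, a secreted inhibitor of cysteine proteases, had rank 16 with 4240.3 TPM in A, 3965 in B, 4292 in C, 4403 in D and 5382 in E. CLU, an extracellular chaperone, averaged 2122 TPM, and the iron-binding antimicrobial protein LTF averaged 1873 TPM. WFDC2, a small secreted protein of the reproductive tract, had 361 TPM in A, 246 in B, 274 in C, 324 in D and 329.6 in E. The labelled cell type was thus matched in part, by some lineage factors and secretory products. OVGP1 and 8 of the 31 measured lineage factors stayed below 1 TPM in all libraries. MSLN and WT1 among the expressed markers also stand in a list of mesothelial genes, of which 7 of 9 were expressed.

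The apical face was marked by mesothelin. MSLN (ENSBTAG00000000177), a cell surface glycoprotein, had 1912 TPM in A, 3827 in B, 4027 in C, 4726 in D and 5635 in E, a 2.95-fold range in which A lay well below the rest. It was 1 of only 6 genes with a mean of 1000 TPM or more that varied at least 2-fold. The uroplakins UPK1B (544 TPM) and UPK3B (341 TPM) and the trefoil peptide TFF3 (657 TPM) were steadier, with SDs of 0.18, 0.068 and 0.24. The mucins MUC1 and MUC20 averaged 166 and 107 TPM. MUC4 was lower and more variable, with 12.7 TPM in A, 7.82 in B, 21.2 in C, 41.2 in D and 20.6 in E, and was highest in D. PIGR, which carries antibodies to the lumen, ranged from 87.9 to 293 TPM.

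Ciliated cell genes were expressed at low levels and were unequal between libraries. Of 63 measured, 28 were expressed, against 41.6% of all genes of the table. The summed share of the list (0.116% ± 0.0141, SD, n = 5) was mostly that of the tubulins TUBA1A and TUBB4B, which other cells use too. FOXJ1 (ENSBTAG00000007916), the master regulator of motile cilia, had 9.50 TPM in A, 30.0 in B, 26.2 in C, 13.7 in D and 28.8 in E. CAPS, a calcium-binding protein of ciliated cells, had 19.0 TPM in A, 59.1 in B, 35.9 in C, 16.1 in D and 44.4 in E. TEKT1, a filament protein of the cilium, had 1.64 TPM in A, 6.73 in B, 2.57 in C, 1.2 in D and 5.18 in E. In all 3, A and D lay below the other libraries. B was highest for 22 of the 28 members, and 22 of the 28 varied at least 2-fold, against 14.0% of all expressed genes. That share was higher at low levels, with 28.5% and 43.6% in the 2 lowest of 10 groups of genes ordered by mean level. A was lowest for 16 of the 28 members and D for 9. Of all expressed genes, B was highest for 10.9%, A lowest for 28.2% and D lowest for 17.2%. The dynein chain DNAH5 stayed below 1 TPM in all 5. In bulk RNA, fewer cells of a type and less RNA per cell cannot be told apart.

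Markers of other cell types were low or listed at 0. None of 6 fibroblast markers was expressed in all libraries. COL1A1, COL1A2, COL3A1, DCN and LUM were below 1 TPM throughout, the highest single value being 0.449 TPM for COL1A1 in E, and PDGFRA ranged from 0.597 to 1.66 TPM. The summed level of the 6 lay between 0.865 (B) and 3.04 TPM (E). None of 6 leukocyte markers reached 1 TPM in any library, and of a wider list of 26 leukocyte genes 3 were expressed, among them CD14 (57.8 TPM) and CORO1A (1.37 TPM). CSF1R, ITGAM and TYROBP, which mark myeloid cells, were listed at 0 in all 5, and the summed level of the 6 lay between 0 and 0.219 TPM. Of the endothelial markers, PECAM1 was listed at 0 and CDH5 was below 1 TPM, while KDR averaged 13.5 TPM and VWF 1.34 TPM. The smooth muscle genes MYH11, DES and CNN1 were below 1 TPM, and ACTA2 had 5.38 TPM on average.

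A few genes usually listed for other cell types were well expressed. HBA (ENSBTAG00000051412), alpha-globin, had 471 TPM in A, 573 in B, 249.7 in C, 447 in D and 94.2 in E, while HBB and ALAS2, also erythroid markers, were listed at 0 in all 5. Mesothelial markers UPK3B and WT1 were steady, CALB2 reached at most 0.149 TPM, and LRRN4 had 8.81 TPM in A, 3.02 in B, 58.8 in C, 28.9 in D and 15.3 in E. From the fibroblast list, MFAP5 (779 TPM), VIM (261 TPM), SPARC (215 TPM) and THY1 (104 TPM) were expressed without the collagens. The part of contaminating cells in these levels was not tested. CYP11A1, the first enzyme of steroid synthesis, averaged 10.5 TPM, while STAR stayed below 1 TPM and HSD3B1, FSHR and LHCGR were listed at 0, so that the other markers of ovarian steroidogenic cells were not expressed.

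**Figure D3:**
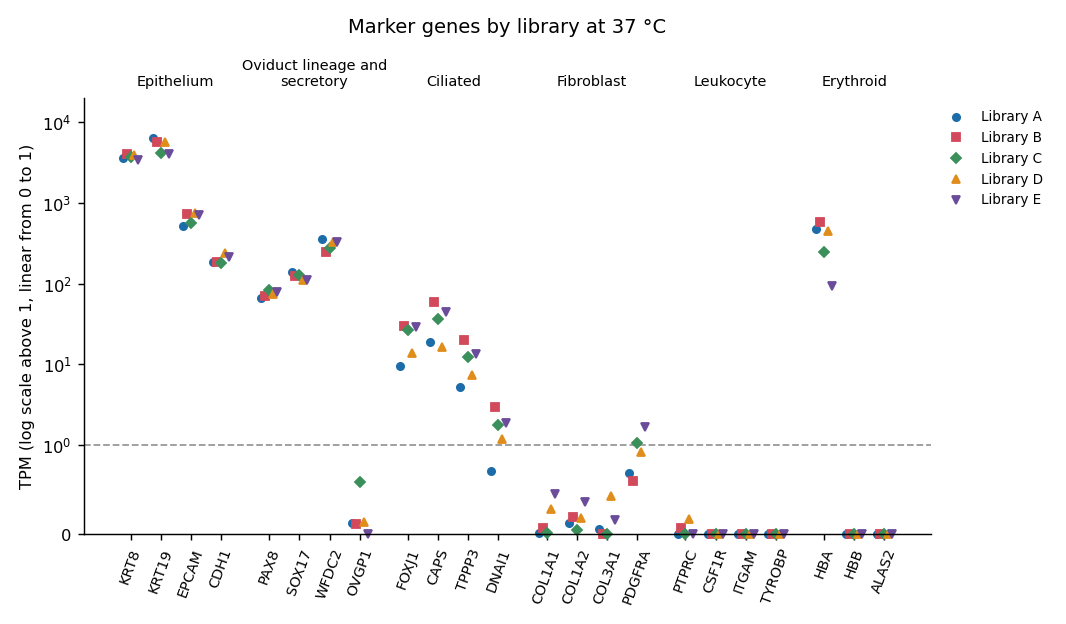
TPM (vertical axis, linear from 0 to 1 and log above) of marker genes of 6 cell types (horizontal axis), with 1 symbol for each library at 37 °C and a dashed line at 1 TPM. Epithelial and lineage genes lie far above the line, OVGP1 and the collagens below it, and HBA between 94.2 and 573 TPM with HBB and ALAS2 at 0.

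Receptors that sense the cycle were few. The oestrogen receptor ESR1 had 28.4 TPM in A, 29.1 in B, 32.6 in C, 33.9 in D and 37.9 in E, a 1.33-fold range, and the progesterone receptor PGR had only 1.60 TPM in A, 1.77 in B, 1.51 in C, 2.48 in D and 2.14 in E. The membrane-associated progesterone receptor components PGRMC1 and PGRMC2 averaged 132 and 111 TPM. ESR2 stayed below 1 TPM in all libraries, and CYP19A1, the aromatase that makes oestrogen, was listed at 0. SULT1E1, which inactivates oestrogen by sulfation, was among the 20 most variable genes, with 13.4 TPM in A, 27.2 in B, 37.3 in C, 105 in D and 67.1 in E, lowest in A and highest in D.

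Prostaglandin genes were dominated by PTGDS, prostaglandin D synthase, at 1779 TPM. The inducible E synthase PTGES had 89.8 TPM in A, 137 in B, 48.2 in C, 123 in D and 40.8 in E and was lowest in C and E. The cyclooxygenases were low, PTGS1 at 3.40 TPM and PTGS2 between 0.560 and 5.62 TPM, and the oxytocin receptor OXTR averaged 6.71 TPM.

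Genes of fluid transport that were expressed included the sodium channel subunit SCNN1A (186 TPM), the chloride loader SLC12A2 (136 TPM) and the calcium-activated chloride channel ANO1 (64.3 TPM). CFTR, the chloride channel opened by cyclic AMP, stayed below 1 TPM in all libraries. The proton pump ATP12A was unequal, with 41.7 TPM in A, 33.9 in B, 15.1 in C, 107 in D and 38.3 in E, lowest in C and highest in D. Of the aquaporins, AQP5 averaged 11 TPM and AQP9 12.6 TPM.

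The targets of the culture additives formed a list that was chosen after the values were seen, and 25 of its 28 genes were expressed. EGFR, the receptor of epidermal growth factor, had 17.8 TPM in A, 15.2 in B, 22.4 in C, 31.7 in D and 24.9 in E. FGFR2, whose epithelial form binds FGF-10, had 29.6 TPM in A, 34.0 in B, 47.6 in C, 41.1 in D and 44.6 in E. Kinases of the families that the inhibitors act on were measured too. ROCK1 stood at 24.2 TPM, ROCK2 at 12.9 TPM and the TGF-beta receptor TGFBR1 at 12.4 TPM. The p38 kinases MAPK14 and MAPK13 stood at 31.3 and 127 TPM, and which members an inhibitor blocks was not examined. MAPK14 was the steadiest of the list (SD 0.027). ID1, a target of BMP signals, which Noggin blocks, had 36.7 TPM in A, 21.5 in B, 52.6 in C, 8.83 in D and 46.7 in E, and ID3 had 29.2 TPM in A, 19.6 in B, 39.3 in C, 17.3 in D and 58.8 in E. D was lowest for both, far below the rest for ID1 and close to B for ID3. Endogenous ligands of the EGF receptor were expressed as well, with EREG at 201 TPM and AREG at 71.3 TPM.

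All 46 proliferation genes were expressed and none varied 2-fold. PCNA, the sliding clamp of replication, had 88.4 TPM in A, 81.4 in B, 94.3 in C, 77.2 in D and 79.5 in E. The mitotic cyclin CCNB1 averaged 73.2 TPM and the S-phase enzyme RRM2 60.3 TPM. Progenitor genes were mixed, with ALDH1A1 (577 TPM), CD44 (182 TPM) and SOX9 (35.9 TPM) expressed and LGR5, the receptor that marks intestinal stem cells, below 1 TPM in all libraries. LGR4 averaged 29.5 TPM. The Wnt ligand WNT7A, which patterns the Müllerian tract in the mouse, averaged 59.7 TPM, and AXIN2, a common target of Wnt signals, did not reach 1 TPM.

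Of 26 measured calprotectin and antimicrobial genes, 10 were expressed, against 41.6% of all genes of the table, and 12 stayed below 1 TPM in all libraries. From the list of chemokines and cytokines, CXCL5, a neutrophil chemokine, had 1279 TPM in A, 1201 in B, 1419 in C, 1948 in D and 1656 in E. S100A12 and S100A8, calcium-binding antimicrobial proteins, averaged 1488 and 316 TPM. MHC class I was expressed through B2M, its light chain, at 1109 TPM with an SD of 0.082. JSP.1, a class I heavy chain, had 650.0 TPM in A, 830.0 in B, 268 in C, 1114 in D and 808 in E, with C far below the rest. Class I heavy chains differ greatly between animals in sequence, reads of near-identical copies may be split by the counting, and their part in this value was not tested. The interferon-induced MX1 averaged 199.5 TPM and ISG15 8.11 TPM.

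Between the 5 libraries most genes differed little. The ratio of the highest to the lowest library was 1.41 for the middle gene, and the middle SD of log2(TPM + 1) was 0.182, with a middle coefficient of variation of 13.7%. In all, 2772 genes (24.8%) stayed within 1.25-fold and 232 within 1.1-fold. A 2-fold or wider range was seen in 1560 genes (14.0%), a 5-fold range in 99 and a 10-fold range in 16. Without library D the 2-fold count was 1032. With genes ordered by mean level and divided into 10 groups of equal size, the share was 43.6% in the lowest group, 3.94% in the group next to the top and 5.29% in the top group. It was 7.06% (551 of 7804) among genes with a mean of 10 TPM or more. Genes without a symbol were over-represented. At a mean of 10 TPM or more, 33.0% of 182 of them varied 2-fold, against 6.44% of genes with a symbol.

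**Figure D4:**
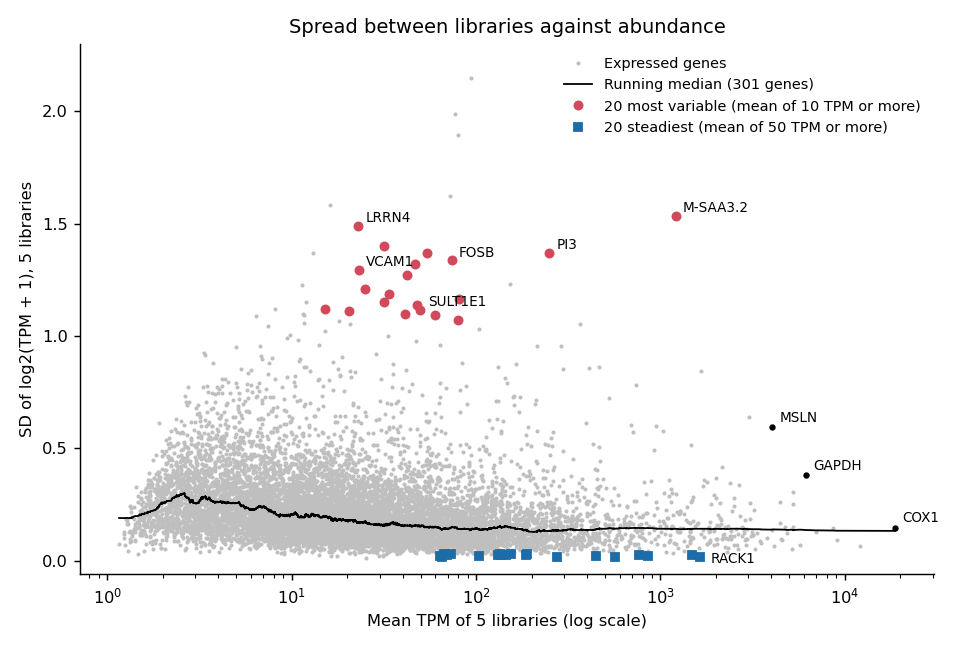
SD of log2(TPM + 1) over the 5 libraries (vertical axis) against mean TPM (horizontal axis, log scale), with 1 point per expressed gene, the running median, and the 20 most variable and 20 steadiest genes with a symbol marked. The uncoloured points above 2 and just below it include 2 genes with only an identifier.

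The libraries did not share the variation equally. Of the 1560 genes, D was the highest library in 706 (45.3%) and A the lowest in 570 (36.5%). TPM was then rescaled so that the typical gene had the same level in each library (median-ratio factors from 0.959 in A to 1.06 in D), which left 1417 such genes, with D highest in 500 (35.3%) and A lowest in 393 (27.7%). Over pairs of libraries, between 141 genes (A and B) and 381 genes (A and D) were 2-fold apart. The Pearson correlation of log2(TPM + 1) across genes, which are not independent replicates, lay between 0.978 and 0.989. Along the first principal component (40.4% of variance) A lay at -19.3 and D at 25.1, and along the second (26.6%) D lay at -15.8 and E at 22.5.

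The 20 steadiest genes were of mixed function. RACK1 (ENSBTAG00000019648), a scaffold of the small ribosomal subunit, had 1641 TPM in A, 1652 in B, 1613 in C, 1647 in D and 1648 in E and an SD of 0.014. PHC2, a Polycomb protein, and RALY, an RNA-binding protein, had SDs of 0.015 and 0.018. The others of the 20 steadiest included the ribosomal proteins RPSA and RPL11, the translocon subunit SSR2, the Rab GTPases RAB2A and RAB5C and the retromer subunit VPS29, and the widest of the 20 had an SD of 0.031. This order depended on the scale. After median-ratio scaling only 1 of the 20 was still among the 20 steadiest, and 5 (ISCA1, MRFAP1L1, PHC2, RACK1 and RALY) stayed there whichever library was left out. By summed share, genes of nuclear RNA binding and splicing were the steadiest list, with 0.706% of TPM in A, 0.704% in B, 0.707% in C, 0.694% in D and 0.696% in E. Its share had a coefficient of variation of 0.886%. The list of translation factors, with TPT1 counted in it (1.66%), and extracellular vesicle genes (2.55%) followed. By the median SD of single members, translation factors (0.094) and the proteasome (0.096) were steadier than splicing genes (0.102). The order of the lists after median-ratio scaling was not examined. Of the vesicle genes, 33 of 34 were expressed and none varied 2-fold, with ANXA2 (3269 TPM) and the tetraspanins CD9 (2257 TPM) and CD81 (1069.9 TPM) the most abundant. Common reference genes differed in spread. The actin ACTB, with 5313 TPM in A, 4676 in B, 5310.0 in C, 4615 in D and 4404 in E, had an SD of 0.12, while GAPDH had an SD of 0.38.

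GAPDH (ENSBTAG00000014731), the glycolytic enzyme, had rank 6 of all genes, with 6653 TPM in A, 7137 in B, 5729.8 in C, 7294 in D and 3855 in E. E lay well below the rest. All 19 glycolysis and lactate genes were lowest in E, where 18.2% of all expressed genes were lowest. Their share was 2.33% in A, 2.28% in B, 2.03% in C, 2.37% in D and 1.56% in E. The same library was lowest for 29 of 31 expressed genes that low oxygen is known to induce, a list chosen after this pattern was seen, which shares 7 members with the glycolysis list. Of the 31, 20 varied at least 2-fold, against 14.0% of all expressed genes. Among these 20, 19 had E lowest and 14 had D highest. Of all genes that varied 2-fold, E was lowest in 16.0% and D highest in 45.3%. The list also shares 9 members with a list of cold and basal stress genes.

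Within this group, VEGFA, the vascular growth factor, had 168 TPM in A, 197 in B, 129.6 in C, 235 in D and 63.7 in E. EGLN3, an oxygen-sensing prolyl hydroxylase, had 518 TPM in A, 527 in B, 479 in C, 897 in D and 221 in E. NDRG1, a stress-induced cytoplasmic protein, had 573 TPM in A, 539 in B, 352 in C, 706 in D and 156 in E. In each, E was lowest and D highest, with A, B and C between. The carbonic anhydrase CA9 (170.1 TPM in A, 196 in B, 100.1 in C, 214 in D and 57.5 in E) and the complex IV-associated NDUFA4L2 (332 TPM in A, 436 in B, 164 in C, 415 in D and 94.3 in E) had E lowest too, with C next to it, and NDUFA4L2 was highest in B. HIF1A, which encodes a factor that acts on these genes, had 266 TPM in A, 272 in B, 245 in C, 308 in D and 283 in E, lowest in C. These are RNA levels, and the activity of the factor was not tested. ANGPTL8, a lipid regulator, and ALPL, an alkaline phosphatase, were outside the list and also lowest in E, at 3.88 and 9.68 TPM against means of 25.1 and 48.1 TPM over all 5. HBA followed the same order at its low end, with C next and E lowest.

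E was in turn the highest library for several secreted and surface genes. SAA3, a serum amyloid A made by epithelia, had 1952 TPM in A, 2849 in B, 2144 in C, 2290.0 in D and 5877 in E. THY1, a surface glycoprotein, had 43.5 TPM in A, 93.9 in B, 56.3 in C, 58.2 in D and 269 in E. MGP, which inhibits calcification, had 8.19 TPM in A, 33.9 in B, 25.5 in C, 16.7 in D and 83.6 in E. E stood at more than 2 times the next library in all 3. SPARC, a matrix protein, was highest in E too (397 TPM, against 142 TPM in A). THY1 and SPARC belong to the list of fibroblast genes, and their levels are part of its summed share. That share was highest in E, with 0.132% in A, 0.127% in B, 0.142% in C, 0.117% in D and 0.177% in E. The share without these 2 genes was not computed. Of its 24 measured members 9 were expressed, against 41.6% of all genes of the table. Of the 9, 5 were highest in E, THY1 and SPARC among them, against 20.5% of all expressed genes. The summed level of the 6 fibroblast markers was highest in E as well (3.04 TPM), with PDGFRA at 1.66 TPM and COL1A1 at 0.449 TPM there. Of the 6, 5 stayed below 1 TPM in all libraries, and COL3A1 was highest in D (0.428 TPM, against 0.164 TPM in E). The part of fibroblasts in these levels was not tested.

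Immediate early genes, which respond within minutes to growth factors, stress or handling, were high in C and E and low in A. Their share was 0.233% in A, 0.265% in B, 0.403% in C, 0.312% in D and 0.421% in E. FOS had 158 TPM in A, 273 in B, 578 in C, 335 in D and 696 in E, and its relative FOSB had 15.2 TPM in A, 34.0 in B, 121 in C, 44.8 in D and 153 in E. ATF3, a stress-induced factor of the same family of leucine zippers, had 9.62 TPM in A, 18.1 in B, 61.1 in C, 41.6 in D and 104 in E. A was lowest for all 3 and E highest. Of 24 expressed members, 14 varied at least 2-fold, 14 were lowest in A and 13 highest in E. Over all expressed genes, 14.0% varied at least 2-fold, 28.2% were lowest in A and 20.5% highest in E. Others of the list were steady, among them JUND (291 TPM, SD 0.076) and MYC (91.5 TPM, SD 0.16).

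Complement and antigen presentation by MHC class II were low in A. The complement and acute phase list made up 0.576% in A, 1.0% in B, 0.764% in C, 0.988% in D and 1.40% in E, and 12 of its 20 expressed members varied at least 2-fold, against 14.0% of all expressed genes. CFB, a protease of the alternative pathway, had 644 TPM in A, 1200.1 in B, 1269 in C, 2709 in D and 2425 in E. C3, the central component, had 1435 TPM in A, 2026 in B, 1795 in C, 2792 in D and 2803 in E, and C1R, a protease of the classical pathway, had 10.1 TPM in A, 28.9 in B, 29.3 in C, 39.9 in D and 45.0 in E. For CFB and C3, D and E were the 2 highest libraries. Haptoglobin HP departed from this, with 27.6 TPM in A, 63.3 in B, 18.4 in C, 136 in D and 54.6 in E, as did a second serum amyloid. M-SAA3.2 (ENSBTAG00000054278), the most variable gene with a symbol and a mean of 10 TPM or more, had 334 TPM in A, 2519.7 in B, 1327 in C, 218 in D and 1657 in E. It was low in A and D, whereas SAA3, of the same family, ranged from 1952 to 5877 TPM. Reads of the 2 genes may be shared by the counting, and that was not tested.

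For class II, 5 of 10 measured members were expressed, against 41.6% of all genes of the table. All 5 varied at least 2-fold, against 14.0% of all expressed genes. CD74, the invariant chain, had 517 TPM in A, 853 in B, 1081 in C, 1453 in D and 1234 in E. The heavy chain BOLA-DRA had 40.5 TPM in A, 38.2 in B, 80.3 in C, 168 in D and 92.8 in E, and CIITA, the coactivator that switches these genes on, had 3.90 TPM in A, 4.28 in B, 5.35 in C, 9.57 in D and 6.93 in E. D was highest for all 3, while A was lowest for CD74 and CIITA and B for BOLA-DRA. Of all expressed genes, 37.2% were highest in D and 28.2% lowest in A. Of those that varied 2-fold, 45.3% were highest in D. PTPRC, which marks all leukocytes, was listed at 0 TPM in A, 0.0690 in B, 0 in C, 0.171 in D and 0 in E, highest in D. Of the other 5 leukocyte markers 3 were listed at 0 in all libraries, and the part of leukocytes in these levels was not tested.

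Several genes named for their spread, overall or within a list, were highest in D, which was the highest library for 37.2% of all expressed genes and 45.3% of those that varied 2-fold. PGLYRP2, which cleaves bacterial peptidoglycan, had 15.9 TPM in A, 36.1 in B, 28.6 in C, 108 in D and 16.5 in E. The integrin subunit ITGAV had 29.3 TPM in A, 41.2 in B, 48.6 in C, 121 in D and 78.5 in E, and the chemokine CCL20 had 31.5 TPM in A, 41.4 in B, 17.4 in C, 70.2 in D and 55.0 in E. PI3, an elastase inhibitor of epithelia, was high in C and D, with 156 TPM in A, 126 in B, 388 in C, 525 in D and 47.4 in E. VCAM1, an adhesion molecule that inflammation induces, had 3.94 TPM in A, 12.8 in B, 16.3 in C, 29.8 in D and 52.6 in E and was highest in E. In the other direction, RGS4, a brake on G protein signals, had 113 TPM in A, 68.3 in B, 61.2 in C, 11.5 in D and 16.6 in E, lower in D and E than in the other 3. ISG12(B), an interferon-induced gene, had 25.9 TPM in A, 50.6 in B, 47.8 in C, 3.75 in D and 29.5 in E, with D alone low.

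**Figure D5:**
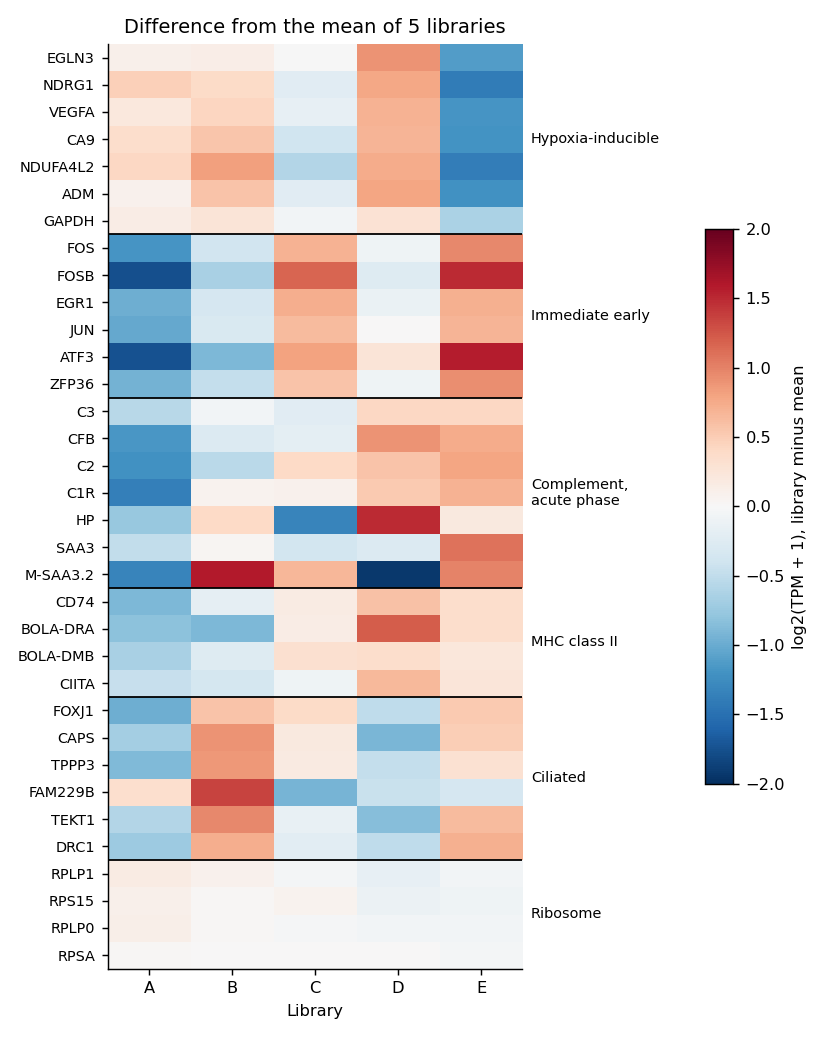
Difference of each library (columns A to E) from the mean of the 5 libraries, on the log2(TPM + 1) scale, for genes of 6 groups (rows), with red above and blue below the mean. E is blue for the hypoxia-inducible genes (NDRG1 at -1.40), A is blue for the immediate early genes (FOSB at -1.76), and the ribosomal genes are near white.

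The remaining genes of the 20 most variable had no single pattern. Among them, GRP, a gastrin-releasing neuropeptide, had 62.0 TPM in A, 80.7 in B, 10.1 in C, 14.2 in D and 43.9 in E, and ASIP, the agouti signalling protein, had 94.5 TPM in A, 182 in B, 21.3 in C, 38.4 in D and 66.5 in E. Both were lowest in C and highest in B. PTGR1, which inactivates prostaglandins and leukotrienes, had 18.2 TPM in A, 82.9 in B, 121 in C, 107 in D and 70.2 in E, with A alone low. The most abundant gene without a symbol, ENSBTAG00000025385, averaged 2707 TPM with an SD of 0.20. The most variable, ENSBTAG00000034185, had 125 TPM in A, 3.32 in B, 67.0 in C, 93.6 in D and 177 in E, and ENSBTAG00000014329 had 4.45 TPM in A, 134 in B, 34.8 in C, 36.3 in D and 173 in E. The first was almost missing in B and the second in A. A further 46 expressed rows carried a symbol with a number, such as CSTB_1 (2103 TPM) and CSTB_2 (2669 TPM), both rows of the protease inhibitor cystatin B. These are several rows of 1 symbol, their reads may have been divided between them, and they held between 1.0% and 1.2% of TPM.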

How the data were processed

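Poly(A) or total selection of the RNA is not given in the sources used here. According to the methods, libraries were read in pairs, trimmed and mapped to ARS-UCD1.2 in CLC Genomics Workbench with TMM normalization, while DESeq2, Bowtie2 2.2.2 and bcl2fastq stand in the submitters' notes without their steps. The authors deposited TPM per gene, and each column sums to 1000000. Columns were matched to samples by title. The 5 columns of the other temperature were not used. TPM is a closed sum, so that a rise of abundant genes lowers all others.

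Computed here (Python 3.11.15, pandas 2.3.3, numpy 2.4.6) were ranks of mean TPM, summed shares of 56 gene lists with 1503 measured symbols, the SD of log2(TPM + 1), the ratio of highest to lowest library, and principal components. The spread script was tested on simulated data. No test between groups was run, and single libraries far from the other 4 were looked for with Dixon's test. Named genes were the 20 most abundant, the 20 with the largest SD at a mean of 10 TPM or more, the 20 with the smallest SD at 50 TPM or more, the 4 most abundant and the most variable member of each list, cell type markers, and 5 genes with only an identifier. A few genes of these sets are not reported here. Further members of lists were named after their values were seen, and 2 lists (hypoxia-inducible genes, targets of culture additives) were added then. Members and lists were chosen with earlier results of these data known. Symbols of 10601 expressed genes matched RefSeq, 10600 of them protein coding. Alternatives covered the TPM minimum, pseudocount, scaling, removal of the mitochondrial genome, and leaving out each library.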

Additional observations from a re-analysis of the deposited data

Results flagged for a closer look

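Of 134 measures checked for 1 library far from the other 4 (Dixon's test at 95%, which chance meets in about 1 of 20 groups), 5 stood out, where chance alone would give about 6.7. PGLYRP2 and ANGPTL8 were among the genes named for their wide spread. Library D was high in the share of endoplasmic reticulum folding genes, at 0.889% against 0.810% to 0.827% in the others. D was high too in the share of Müllerian lineage factors, at 0.126% against 0.107% to 0.110%. PGLYRP2, the peptidoglycan-cleaving enzyme, was at 108 TPM in D against 15.9 to 36.1 TPM. ANGPTL8, the lipid regulator, was at 3.88 TPM in E against 26.9 to 35.2 TPM. Library B was high in the share of a list of neuronal and Schwann cell genes, at 0.0102% against 0.00474% to 0.00566%, of which only S100B and SNAP25 were expressed.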

How the results depend on the processing

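The number of expressed genes (11163) ranged from 8825 at a minimum of 5 TPM to 12559 under a zFPKM rule, and from 11209 to 11290 with 1 library left out, always within 1.5 times. Without the mitochondrial genome the 10 most abundant genes held 6.26% and the 100 most abundant 29.7%. Leaving out a library gave 8.38% to 8.49% and 32.2% to 32.8%. The count of genes varying 2-fold or more was 1024 for a ratio of TPM + 1, 382 for TPM + 5, 551 at a mean of 10 TPM or more and 3526 with no filter but values above 0. It ranged from 1032 (without D) to 1360 with 1 library left out, and was 1417 with median-ratio scaling and 1408 with quantile normalization. The median SD was 0.196 with a pseudocount of 0.1, 0.142 with 5 and 0.162 at a mean of 10 TPM or more, and ranged from 0.159 (without D) to 0.186 with 1 library left out. Of 347 alternatives to list shares, 15 moved by more than 1 SD, each by removing the mitochondrial genome, which raises the share of every other list. Of the 20 most variable genes, 12 were kept when ranked by the coefficient of variation, 19 after median-ratio scaling and 13 to 16 without 1 library. Of the 20 steadiest, 19, 1 and 8 to 13 were kept. Only 2 of the 20 most variable (M-SAA3.2 and RGS4) and 5 of the 20 steadiest stayed whichever library was left out. The read numbers that the study reports were not used, and the counting error of low levels is not given. No paired analysis was possible because the 37 °C group alone was described. Promoter motifs were not run, since no sequence was used here.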
